A study of Mus musculus with 5 samples.

Results

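Interferon-signature capillary endothelial cells are cells of the finest blood vessels that carry transcripts of several interferon-induced genes. Within the tibialis anterior, a fast muscle of the lower leg, 4271 such cells were found among 56922 deposited barcodes, 1433 and 545 from frail libraries 1 and 2, against 690, 1076 and 527 from control libraries 1, 2 and 3. UMIs (unique molecular identifiers) count captured RNA molecules. A barcode had to show 200 genes or more, with no more than 10% of its UMIs mitochondrial. It also had to hold UMIs of at least 2 of the 4 endothelial genes Pecam1, Cdh5, Tie1 and Egfl7, and at least 2 of the 6 capillary genes Cd300lg, Gpihbp1, Timp4, Bmp6, Car4 and Aqp1. The interferon condition was at least 3 of the 6 genes Iigp1, Gbp4, Gbp2, Cd274, Rsad2 and Ifit1. Barcodes with more than 1 of 5 arterial genes (Sema3g, Gja5, Gkn3, Stmn2, Bmx), more than 3 of 6 arteriolar genes (Rbp7, Btnl9, Hey1, Sox17, Aqp7, Depp1) or more than 1 UMI in all of Pdgfra, Ptprc and Abcc9 were left out. The cells were thus chosen by the detected UMIs of these genes, and the levels of the genes are a description and not a test.

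The muscles came from 2 frail mice, labelled as cases, which scored at or above 0.18 on a frailty index of accumulated deficits, and from 3 control mice that scored below it. Each mouse gave 1 droplet library (10x Chromium 3′), and the series text says that these animals were kept after a filter on data quality. All animals were female C57BL/6 mice aged 26 months, and the labels name no transgene, engineered allele or drug in either group. Frail and control animals were thus equally old, and no young animal was analysed here. Libraries are the replicates throughout. The frail libraries held 72043464 and 70155746 UMIs, against 68170531, 71140868 and 90942121 in the control libraries. The labels describe both a digestion to whole cells and a lysis to sorted nuclei, and do not settle which was done. Levels are given as CPM, the UMIs of a gene per 1000000 UMIs of the same cells in the same library.

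Cells sense interferons through a pair of receptor families. Type I interferons bind IFNAR1 and IFNAR2, and the kinases JAK1 and TYK2 then activate a complex that holds STAT2 and IRF9 and binds a DNA element called the ISRE. Interferon gamma binds IFNGR1 and IFNGR2 and acts through another element, the GAS. The induced genes block viral replication, raise antigen presentation by MHC class I and make guanylate-binding proteins and immunity-related GTPases, which attack the compartments of intracellular microbes. Capillary endothelium meets circulating cytokines directly, and in muscle it also passes fatty acids to the fibres.

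The 6 interferon genes fall into 3 roles. Iigp1 encodes an immunity-related GTPase, and Gbp4 (chr5:105115767-105139586) and Gbp2 (chr3:142620602-142638008) encode guanylate-binding proteins. Rsad2 (chr12:26442746-26456452) encodes viperin, which makes a chain-terminating nucleotide, and Ifit1 (chr19:34640871-34650009) encodes a protein that binds viral RNA caps. Cd274 (chr19:29367455-29388095) encodes PD-L1, the ligand that restrains T cells through PD-1. Positions are those of GENCODE vM21 on GRCm38. Promoters of 250 bases before and 50 bases after the start site were taken from RefSeq on GRCm38.p6, and 4 of the 6 genes had one shown here. They are printed because the joint presence of these genes defines the cells. Capitals mark matches to the ISRE core, which is GAAA, any 2 bases and GAAA, or TTTC, any 2 bases and TTTC where it lies on the other strand.
Ifit1 promoter, chr19:34640639-34640938, plus strand: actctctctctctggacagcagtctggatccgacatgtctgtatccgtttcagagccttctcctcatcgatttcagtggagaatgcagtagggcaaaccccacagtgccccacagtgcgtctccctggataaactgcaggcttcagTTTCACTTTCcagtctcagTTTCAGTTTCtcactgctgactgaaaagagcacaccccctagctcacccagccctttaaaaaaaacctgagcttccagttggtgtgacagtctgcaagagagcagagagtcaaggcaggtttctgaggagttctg
Rsad2 promoter, chr12:26456403-26456702, minus strand: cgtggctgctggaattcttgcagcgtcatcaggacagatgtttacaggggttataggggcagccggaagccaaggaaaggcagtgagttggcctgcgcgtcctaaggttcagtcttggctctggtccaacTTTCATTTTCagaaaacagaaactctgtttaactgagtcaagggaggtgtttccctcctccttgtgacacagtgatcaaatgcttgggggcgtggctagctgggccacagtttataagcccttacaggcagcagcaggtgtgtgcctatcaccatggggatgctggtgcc
Gbp2 promoter, chr3:142620413-142620712, plus strand: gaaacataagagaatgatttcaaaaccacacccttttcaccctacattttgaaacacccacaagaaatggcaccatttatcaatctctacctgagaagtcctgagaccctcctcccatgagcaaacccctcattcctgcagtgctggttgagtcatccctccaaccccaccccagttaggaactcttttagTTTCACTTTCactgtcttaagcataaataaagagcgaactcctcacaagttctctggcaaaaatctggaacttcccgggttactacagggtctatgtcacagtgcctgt
Cd274 promoter, chr19:29367188-29367487, plus strand: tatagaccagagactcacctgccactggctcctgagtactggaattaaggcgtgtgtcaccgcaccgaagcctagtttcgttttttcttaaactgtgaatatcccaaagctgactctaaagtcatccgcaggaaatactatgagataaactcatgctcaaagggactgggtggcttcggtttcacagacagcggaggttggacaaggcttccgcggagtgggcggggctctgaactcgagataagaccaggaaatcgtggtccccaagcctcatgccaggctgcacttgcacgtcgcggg

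Ifit1 held 2 matches, whose first bases lay at -104 and -85 from the start site, Rsad2 held 1 at -120 and Gbp2 held 1 at -59. The Cd274 window held none, which says only that these letters are not in this window. Among all 32851 RefSeq promoters of the same length, 3.44% held the ISRE core, and so did at least 1 promoter of 3.99% of the 27025 genes. It stood in 12 of the 13 interferon-inducible GTPase genes that matched the table, in 16 of 36 genes of the type I interferon list and in 5 of 18 genes of the MHC class I list. None of 17 genes of the capillary transport list and none of 8 heat shock genes held it, and 2 of 12 ribosomal protein genes did. The GAS core TTCNNNGAA was searched on both strands too, and no base of it is marked above because none of the 4 promoters held a match. It stood in 8.30% of all promoters and 9.55% of genes, in 8 of the 13 GTPase genes, in 7 of 36 type I genes and in 2 of 18 MHC class I genes. The patterns can share the letters GAA, and a match is a description of the sequence and not a binding site.

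In signature cells Iigp1 stood at 1538 and 967 CPM in frail 1 and 2, against 1426, 1401 and 1057 CPM in control 1, 2 and 3. Gbp4 stood at 604 and 184 CPM in frail 1 and 2, against 232, 231 and 148 CPM in control 1, 2 and 3. Frail 1 stood far above the other libraries for Gbp4, and frail 2 lay within the control range for it but below that range for Iigp1. Gbp2 stood at 356 and 191 CPM in the frail libraries, against 243, 241 and 158 CPM in the controls. Cd274 stood at 288 and 134 CPM in the frail libraries, against 127, 184 and 113 CPM in the controls. Both were highest in frail 1, and frail 2 lay between the lowest and the highest control for both.

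Rsad2 and Ifit1, the antiviral effectors, had a different order of libraries in signature cells, which these same genes helped to choose. Rsad2 stood at 349 and 378 CPM in the frail libraries, against 328, 552 and 404 CPM in the controls. Ifit1 stood at 203 and 160.5 CPM in the frail libraries, against 388, 704 and 246 CPM in the controls. Control 2 was the highest library for both genes, and both frail libraries lay below all controls for Ifit1. Low-interferon capillary cells passed the same gates with 0 or 1 of the 6 genes. In them Iigp1 stood at 165 to 205 CPM, Rsad2 at 36.7 to 79.4 CPM and the other 4 genes at 5.22 to 26.4 CPM. Ifit1 stood there at 19.9 and 5.22 CPM in the frail libraries, against 9.53, 23.1 and 8.83 CPM in the controls. Frail 1 thus lay within the control range there. In capillary cells with exactly 2 of the 6 genes, Ifit1 stood at 41.2 and 33.9 CPM in the frail libraries, against 96.3, 126 and 59.7 CPM in the controls. The capillary gene Timp4, an inhibitor of matrix metalloproteinases, had in signature cells 2561 and 1947 CPM in the frail libraries, against 2839.8, 2807 and 2357 CPM in the controls. In low-interferon cells Timp4 stood at 1086 and 1943 CPM in the frail libraries, against 2761, 1883 and 2170.0 CPM in the controls, so that frail 1 held less of it there than any other library.

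**Figure D1:**
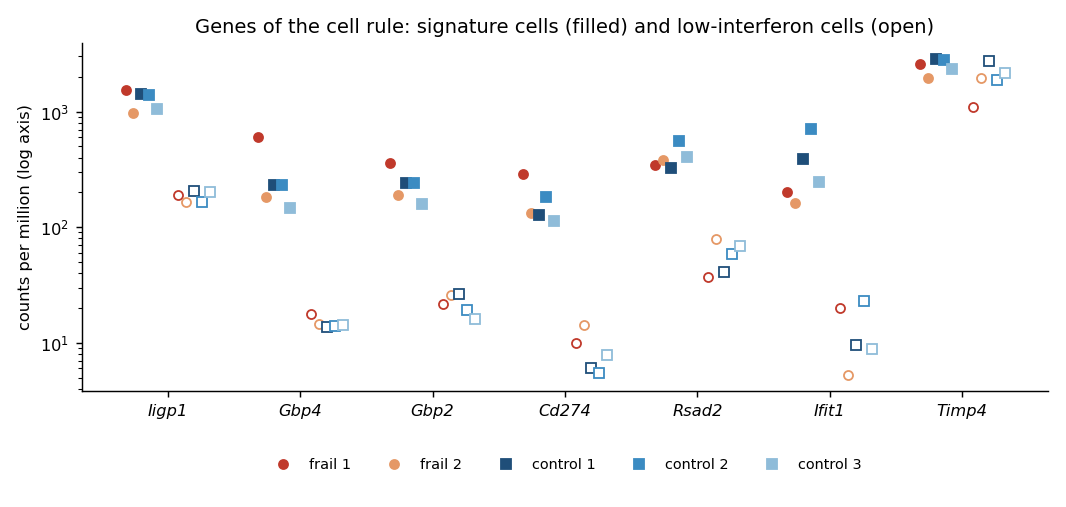
Level in CPM on a log axis of the 6 interferon genes of the cell rule and the capillary gene Timp4, by library (circles for frail, squares for control), in interferon-signature cells (filled, left) and low-interferon capillary cells (open, right). For Gbp4, Gbp2 and Cd274 the frail 1 signature cells are the highest points, at 604, 356 and 288 CPM, while for Ifit1 control 2 is the highest at 704 CPM.

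The threshold of 3 genes cut through a continuous range. Cells with exactly 3 of the 6 genes held a median of 6 to 8 UMIs of these genes per library, and cells with exactly 2, which were left out, held 3 or 4. Exactly 3 genes were found in 29.2% and 57.8% of the signature cells of frail 1 and 2, against 48.8%, 38.1% and 52.0% in control 1, 2 and 3. All 6 were found in 12.9% and 2.57% in frail 1 and 2, against 7.25%, 10.9% and 3.98% in the controls. Rsad2 or Ifit1 was present in 77.9% and 83.5% of signature cells in the frail libraries, against 84.5%, 90.3% and 91.1% in the controls. All 3 GTPase genes were present in 57.3% and 27.3% in the frail libraries, against 34.6%, 33.8% and 22.8% in the controls. Among cells so chosen, frail 1 held the largest share with every GTPase gene and the smallest share with an antiviral effector. The 3 GTPase genes alone meet the cut of 3, so cells without Rsad2 and Ifit1 can enter through them. Such cells made up 14.7% and 8.99% of signature cells in the frail libraries, against 8.99%, 5.39% and 4.55% in the controls. These shares therefore depend on the rule and are a description.

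Endothelial markers were abundant in these cells, although the rule itself asked for some of them. In signature cells the 8 endothelial markers summed to 5839 and 8918 CPM in the frail libraries, against 6949, 6204 and 5513 CPM in the controls, with all 8 detected in each library. In cells gated as fibro-adipogenic they summed to 76.7 to 129 CPM. Markers of other cells were present at lower sums. The 6 mural markers summed to 970.5 to 1713 CPM and the 6 fibro-adipogenic markers to 987 to 1747 CPM, with none at 0, and the 6 haematopoietic markers to 160.0 to 254 CPM, with at most 1 at 0. Cells gated as mural and fibro-adipogenic held 14178 to 24594 and 24778 to 29967 CPM of their own markers. A tighter gate, chosen after the data were seen, asked for at least 3 of the 4 endothelial genes and for at most 1% of UMIs in each of 5 other marker lists. It kept 90.8% and 95.6% of signature cells in the frail libraries, against 92.0%, 88.8% and 89.2% in the controls. By Scrublet score, 54 and 10 signature cells of frail 1 and 2 were marked as doublets, against 21, 30 and 26 in control 1, 2 and 3. Of all barcode sequences, 348 occurred in 2 or more libraries, 50 signature cells had such a barcode, and 1 sequence marked a signature cell in 2 libraries.

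How common these cells were differed more between the frail animals than between the groups. Signature cells made up 75.5% (95% Wilson interval 73.5% to 77.4%) of the 1898 gated capillary cells of frail 1, and 18.9% (17.5% to 20.4%) of the 2884 of frail 2. In the controls the shares were 37.1% (34.9% to 39.3%), 49.95% (47.8% to 52.1%) and 31.8% (29.6% to 34.1%) of 1861, 2154 and 1656 gated capillary cells. With this denominator frail 1 lay above all controls and frail 2 below them. Of all retained barcodes, signature cells made up 15.3% and 5.18% in the frail libraries, against 7.98%, 10.9% and 4.36% in the controls. By that measure frail 2 lay above control 3. Among gated capillary cells the mean share was 47.2% ± 40.0 in frail and 39.6% ± 9.33 in control libraries (SD, n = 2 and 3), a difference of 7.58 percentage points. An exact permutation test (two-sided, over libraries) gave p = 0.8, where the smallest p this design allows is 0.1. Without frail 1 the difference was -20.7 points and without frail 2 it was 35.9, while it was 12.7 without control 2 and 3.68 without control 3. Wilson intervals cover counting error only.

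The order of libraries was the same at equal depth. Signature cells held medians of 3983 and 4210 UMIs in the frail libraries, against 4606.5, 4278.5 and 4324 in the controls. All barcodes with at least 3000 UMIs were thinned to that number and gated again, which gave 1650 and 2214 capillary cells in the frail libraries, against 1601, 1856 and 1283 in the controls. The thinning left out as too shallow 587 and 1134 in the frail libraries, against 663, 716 and 589 in the controls of the capillary cells gated before. The thinned shares were 70.3% and 14.9% in frail 1 and 2, against 32.1%, 47.8% and 26.3% in control 1, 2 and 3. The tighter gate gave 80.5% and 20.2%, against 39.1%, 54.7% and 35.0%. Free RNA can place UMIs in cells that do not express a gene, and mural cells were the comparison for it. The share of mural cells with at least 3 of the 6 genes was 1.98% and 0.647% in the frail libraries, against 0.587%, 2.23% and 1.46% in the controls. The median depth of mural cells was 4423 and 3238.5 UMIs in the frail libraries, against 5437, 3893 and 3468 UMIs in the controls. The median share of mitochondrial UMIs in signature cells was 5.78% and 4.75% in the frail libraries, against 4.06%, 4.19% and 5.35% in the controls, and its part in the order of libraries was not tested.

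Other vessels showed the same order of libraries, from frail 1 through control 2, control 1 and control 3 to frail 2. In cells gated as arterial, the share with at least 3 of the 6 genes was 86.9% and 36.2% in the frail libraries, against 61.4%, 72.1% and 58.5% in the controls. In cells gated as arteriolar, the shares were 87.3% and 27.9% in the frail libraries, against 54.2%, 70.2% and 50.5% in the controls. These cells were deeper, and after thinning to 3000 UMIs the arterial shares were 65.0% and 16.2% in the frail libraries, against 39.0%, 48.1% and 32.2% in the controls. The thinned arteriolar shares were 74.0% and 17.1% in the frail libraries, against 34.8%, 47.8% and 27.8% in the controls. Fibro-adipogenic cells, the matrix-making stroma, had median depths of 7212.5 to 8550 UMIs. Before thinning, their share was 14.7% and 3.05% in the frail libraries, against 8.15%, 9.29% and 12.9% in the controls. After thinning it fell to 4.65% and 0.943% in frail 1 and 2, against 1.65% and 2.99% in control 1 and 2. Control 3 then lay between control 2 and frail 1. Before and after thinning, frail 1 was again highest and frail 2 lowest, but control 3 stood above the other controls.

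**Figure D2:**
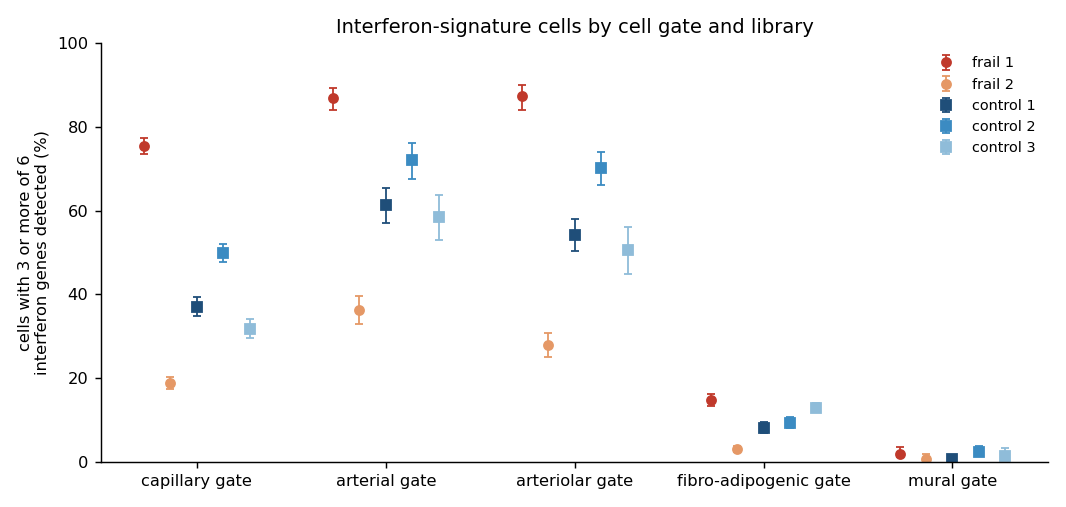
Percent of cells in which at least 3 of the 6 interferon genes were detected, by cell gate and library (circles for frail, squares for control), with 95% Wilson intervals. In the capillary, arterial and arteriolar gates frail 1 lies above and frail 2 below every control, at 75.5% and 18.9% in the capillary gate, while mural cells stay at or under 2.23%.

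Beside low-interferon capillary cells of the same library, signature cells carried much more than the 6 genes that chose them. This contrast is a description with no test, because the rule used it. Ratios are on the log2(CPM + 1) scale within a library and their median over the 5 libraries is given. Of 9105 genes with at least 10 CPM in either population, 17.2% were higher and 18.2% lower in signature cells in all 5 libraries, with a median ratio of 0.00. The low-interferon gate also held cells with lymphatic, mural and myofibre transcripts. The tighter gate kept 53.1% and 85.6% of low-interferon cells in the frail libraries, against 82.9%, 65.2% and 74.8% in the controls. In the tighter gate 8.05% of genes were higher and 7.59% lower in all 5 libraries. Low-interferon cells were also shallower, with medians of 3018 to 3280 UMIs, and among cells of 3000 to 6000 UMIs in both populations 6.1% of genes were higher and 7.78% lower in all 5 libraries.

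The interferon receptor genes named here had small ratios in either direction, and the transcription factors of the pathway were higher in signature cells. Ifnar1 stood at 26.1 to 67.9 CPM in signature cells and 16.9 to 50.8 CPM in low-interferon cells (median log2 ratio 0.15). Ifngr1, the ligand-binding chain of the interferon gamma receptor, stood at 236 to 349 CPM in signature cells and 177 to 299 CPM in low-interferon cells (0.31). Ifngr2, its signalling partner, had a ratio of -0.42. Stat2 and Irf9, which belong to the ISRE-binding complex, had ratios of 1.20 and 1.31, Irf7, the amplifier of type I interferon, 1.37, and Irf1, a factor induced by both interferon types, 0.93. The feedback inhibitor Usp18, which blocks IFNAR2, stood at 31.3 to 40.7 CPM in signature cells and 8.26 to 17.9 CPM in low-interferon cells, with a ratio of 1.73. Of the 19 measured genes of the list, 14 were higher in all 5 libraries, and 11 in the tighter gate.

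Sensors of viral nucleic acid followed the same pattern. Ifih1, which encodes the double-stranded RNA sensor MDA5, stood at 50.001 to 66.1 CPM in signature cells and 16.9 to 30.5 CPM in low-interferon cells (1.16), and Ddx58, which encodes RIG-I, had a ratio of 1.05. The cytosolic DNA sensor Cgas had a ratio of 0.95 and its partner Sting1 0.86. Mavs, the adaptor below MDA5 and RIG-I, had a ratio of -0.09, and the kinase Tbk1 0.12. These sensors and Sting1 were thus higher in signature cells, while Mavs and Tbk1 stood level. In all, 9 of 12 measured sensor genes were higher in all 5 libraries, with 7 in the tighter gate. Zbp1, a sensor of left-handed nucleic acid that can trigger cell death, had in signature cells 47.6 and 3.18 CPM in the frail libraries, against 6.65, 13.3 and 7.80 CPM in the controls, so that frail 1 was several times above every other library.

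Antiviral effectors outside the rule were higher in nearly all cases. Of the 37 measured genes of the type I list, 36 were higher in all 5 libraries, with a median ratio of 1.09, and 32 with a median of 0.90 in the tighter gate. Ifit3, a partner of Ifit1, had in signature cells 97.5 and 55.1 CPM in the frail libraries, against 76.5, 79.4 and 71.2 CPM in the controls. Low-interferon cells held 7.27 to 16.9 CPM of it (ratio 2.76). Ifit2, of the same family, stood at 157 and 63.3 CPM in the frail libraries, against 79.1, 100.2 and 102 CPM in the controls (2.50). Isg15, a ubiquitin-like modifier, stood at 384 and 246 CPM in the frail libraries, against 209.9, 552 and 319 CPM in the controls (2.12). Ifit2 was highest in frail 1 and Isg15 in control 2. Ifit3 and its near-identical copy Ifit3b could exchange reads, so their split is uncertain. Bst2, which encodes tetherin, stood at 1296 and 441 CPM in the frail libraries, against 607, 675 and 547 CPM in the controls (1.02), and Slfn5, a Schlafen family gene, at 952 to 1209 CPM (0.86). The exception to the list was Ifi27l2a, at 42.8 to 119.6 CPM in signature cells and 37.2 to 230.3 CPM in low-interferon cells (-0.50, and 0.02 in the tighter gate). Mx1, an antiviral GTPase gene that is defective in many inbred mouse strains, stood at 0 to 2.60 CPM in signature cells, and its relative Mx2 at 14.1 to 48.1 CPM.

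The GTPases were the list with the largest median ratio among the interferon lists. Of 15 measured genes outside the rule, 14 were higher in all 5 libraries, with a median of 1.93, and 14 with a median of 1.48 in the tighter gate. Gbp7, a guanylate-binding protein gene, had in signature cells 738 and 238 CPM in the frail libraries, against 355, 366 and 288 CPM in the controls. Low-interferon cells held 63.3 to 179.7 CPM of it (ratio 1.98). Igtp, also known as Irgm3, stood at 350.3 and 68.6 CPM in the frail libraries, against 134, 175 and 82.6 CPM in the controls (2.31). Gbp3 stood at 249 and 56.5 CPM in the frail libraries, against 117, 115 and 91.4 CPM in the controls (1.93). For all 3 genes frail 1 was the highest library and frail 2 the lowest. Irgm1 and Irgm2, regulators that guard the cell's own membranes, had ratios of 1.61 and 1.87, and Ifi47 1.76. Tgtp1 and Tgtp2 are near-identical, as are Gbp6 and Gbp10 in part, so their separate counts are uncertain.

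Genes of MHC class I presentation were higher by smaller ratios. Of 21 genes, 20 were higher in all 5 libraries, with a median of 0.66, and 18 with a median of 0.34 in the tighter gate. Tap1, a subunit of the peptide transporter into the endoplasmic reticulum, stood at 206 and 73.5 CPM in the frail libraries, against 107, 118 and 83.3 CPM in the controls (1.41). Psmb8, an immunoproteasome subunit, stood at 587 and 240.3 CPM in the frail libraries, against 331, 304 and 237 CPM in the controls (1.02). The class I heavy chain H2-K1 stood at 2413 and 1238 CPM in the frail libraries, against 1754, 2369.8 and 1259.5 CPM in the controls (0.52), and B2m, the light chain, had a ratio of 0.48. The gene that was not higher in every library was Calr, a chaperone of peptide loading that is not mainly induced by interferon (0.05). Among 5 measured MHC class II genes none was higher in all 5 libraries, and Cd74, the invariant chain, had a ratio of 0.37.

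Of 11 measured chemokine and checkpoint genes outside the rule, 6 were higher and 1 lower than in low-interferon cells in all 5 libraries. In the tighter gate 5 were higher in all 5 libraries, and 3 among cells of 3000 to 6000 UMIs in both populations. Cxcl9 and Cxcl10 encode chemokines that attract T cells through CXCR3. In signature cells Cxcl9 stood at 226 and 103 CPM in the frail libraries, against 243, 311 and 159 CPM in the controls. Low-interferon cells held 47.4 to 75.4 CPM of it (ratio 1.87). Cxcl10 stood at 143 and 89.4 CPM in the frail libraries, against 312, 383 and 249 CPM in the controls (1.86). The controls stood above both frail libraries for Cxcl10. Among cells of 3000 to 6000 UMIs the ratio of Cxcl10 ran from -1.81 to 3.49 over libraries, and that of Cxcl9 from 0.50 to 1.83. Ccl7 and Ccl2, which encode chemokines that attract monocytes, had ratios of -1.69 and -1.37, and -0.59 and 0.30 in the tighter gate. Tnfsf10, which encodes the death ligand TRAIL, had a ratio of 0.89, and Il18bp, the soluble inhibitor of IL-18, 1.13. Among adhesion genes, Icam1, which holds leukocytes on the vessel wall, stood at 167 to 269 CPM in signature cells and 70.9 to 144 CPM in low-interferon cells (0.90). Vcam1, another adhesion molecule, had a ratio of 1.47. All 6 measured adhesion genes outside the rule were higher in all 5 libraries. In the tighter gate 4 were, and 1 was among cells of 3000 to 6000 UMIs.

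Most venous genes were higher in signature cells too, although no venous gene was in the rule. Of the 10 genes of the venous list, 7 were higher and 1 lower in all 5 libraries, with a median ratio of 0.66. Among cells of 3000 to 6000 UMIs in both populations the list median was -0.04, and 1 gene was higher in all 5 libraries. Selp, the P-selectin on which leukocytes roll, stood at 51.0 to 102 CPM in signature cells and 2.98 to 14.9 CPM in low-interferon cells (3.16), Vwf, a clotting carrier protein, at 164 to 194 CPM in signature cells and 32.8 to 123 CPM in low-interferon cells (1.33), and Lrg1, a secreted protein that modifies TGF-beta signalling, at 69.3 to 237 CPM in signature cells and 33.7 to 51.6 CPM in low-interferon cells (1.45). Plvap, which forms the diaphragms of endothelial pores, had a ratio of 1.99. At least 2 of 6 venous markers were detected in 16.1% and 21.1% of signature cells in the frail libraries, against 20.7%, 17.2% and 15.2% in the controls. In low-interferon cells the shares were 8.25% and 8.86% in the frail libraries, against 7.02%, 6.25% and 6.84% in the controls. Among cells of 3000 to 6000 UMIs in both populations the ratio was 1.19 for Selp and -0.25 for Plvap, and 1 of 6 venous markers was higher in all 5 libraries, against 5 of 6 without the depth window. The GTPases changed little under the same window, with a median of 1.86 and 14 of 15 higher in all 5 libraries. In cells with no venous marker detected, the ratio was 2.67 for Ifit3 and 1.97 for Igtp.

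Genes of capillary transport stood close to level. Of 17 measured genes outside the rule, 12 were higher in all 5 libraries, with a median ratio of 0.29, and 1 with a median of 0.01 in the tighter gate. Fabp4, a fatty acid binding protein, stood at 13319 to 37668 CPM in signature cells (0.33, and -0.13 in the tighter gate). In signature cells the fatty acid transporter Cd36 stood at 2202 and 6932 CPM in the frail libraries, against 4048, 3729 and 2379 CPM in the controls (0.32, and -0.04 in the tighter gate), with frail 2 the highest library and frail 1 the lowest. Apln, the ligand apelin made by endothelial tip cells, had a ratio of 1.63, which ran from 0.01 to 2.05 over libraries. The VEGF receptors Kdr and Flt1 had ratios of 0.16 and 0.32, and -0.23 and -0.08 in the tighter gate.

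**Figure D3:**
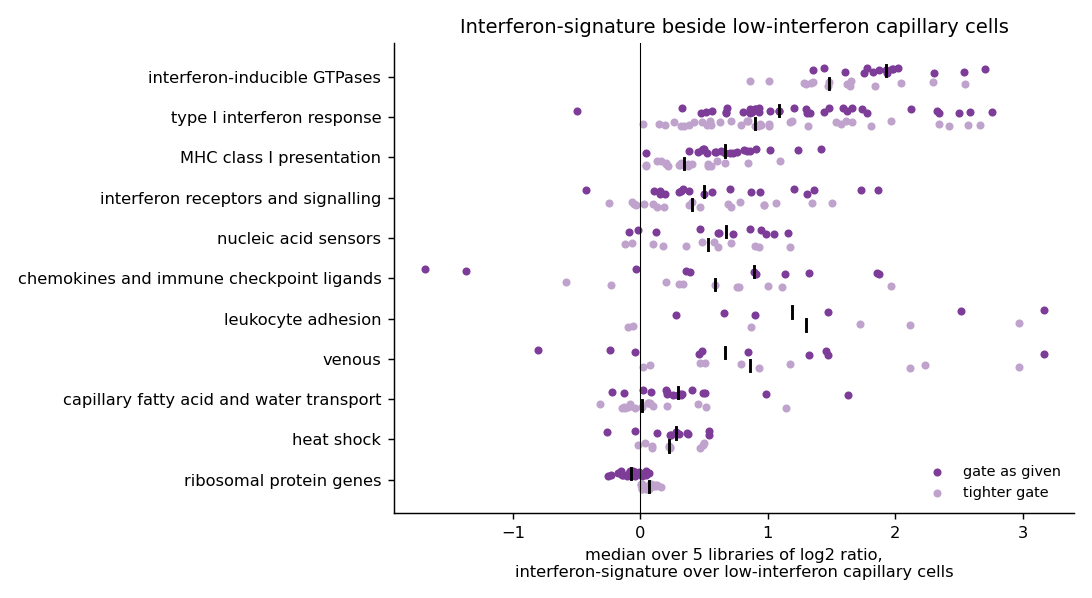
Median over 5 libraries of the log2 ratio of interferon-signature over low-interferon capillary cells (horizontal axis, CPM + 1), 1 point per gene with at least 10 CPM in either population and outside the cell rule, by gene list, with black bars at list medians. The median falls from 1.93 for the GTPases through 1.09 for the type I list and 0.66 for MHC class I to -0.08 for ribosomal protein genes in the gate as given (dark), and pale points show the tighter gate.

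The genes with the lowest ratios included markers of other cells. The lymphatic genes Ccl21a, Mmrn1 and Lyve1 had ratios of -5.52, -4.53 and -3.28, and the smooth muscle genes Acta2 and Tpm2 -2.56 and -2.58. In the tighter gate these were -0.06, -0.19, -0.17, -0.10 and -0.16. In signature cells the 5 lymphatic markers summed to 188 and 51.6 CPM in the frail libraries, against 61.2, 355 and 81.0 CPM in the controls. In low-interferon cells they summed to 2324 and 252 CPM in the frail libraries, against 266, 548 and 581 CPM in the controls. The 6 mural markers in low-interferon cells summed to 9061 and 2731 CPM in the frail libraries, against 2885, 3426 and 3018 CPM in the controls. Frail 1, with 194 low-interferon cells, held the highest sums of both lists there. Ribosomal protein genes were lower by small ratios, with a median of -0.08 and 11 of 22 lower in all 5 libraries. The direction was not kept in the tighter gate, where the median was 0.07 and 7 of 22 were higher in all 5 libraries. Among cells of 3000 to 6000 UMIs the median was -0.11.

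Among signature cells themselves, the libraries were ordered by list. Of the 15 measured GTPase genes outside the rule, 14 were highest in frail 1 and 12 were lowest in frail 2. Over all 8387 measured genes, 1506 were highest in frail 1 and 1786 lowest in frail 2. Of 21 MHC class I genes, 18 were highest in frail 1. Of 37 type I genes, 14 were highest in frail 1 and 8 in control 2, and 15 were lowest in frail 2. The summed level of the GTPase list, rule genes included, was 5262 and 2169 CPM in the frail libraries, against 3269, 3329.8 and 2386 CPM in the controls. In all gated capillary cells, with no cut on the 6 genes, 15 of 15 GTPase, 19 of 21 MHC class I and 25 of 36 type I genes were highest in frail 1, beside 17.9% of all genes. Gm12250, a further gene of the GTPase list, stood at 136 and 1.77 CPM in the frail libraries, against 17.1, 36.9 and 11.4 CPM in the controls. In cells gated as arterial, all 14 measured GTPase genes were highest in frail 1, and 12 were lowest in frail 2. Of 38 type I genes there, 23 were highest in frail 1 and 27 lowest in frail 2. Over all 8335 genes measured in arterial cells, 18.3% were highest in frail 1 and 18.3% lowest in frail 2. In low-interferon cells 8 of 9 GTPase, 5 of 21 MHC class I and 9 of 32 type I genes were highest in frail 1, beside 24.6% of all genes. There 10 of the 21 MHC class I genes were highest in control 1.

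**Figure D4:**
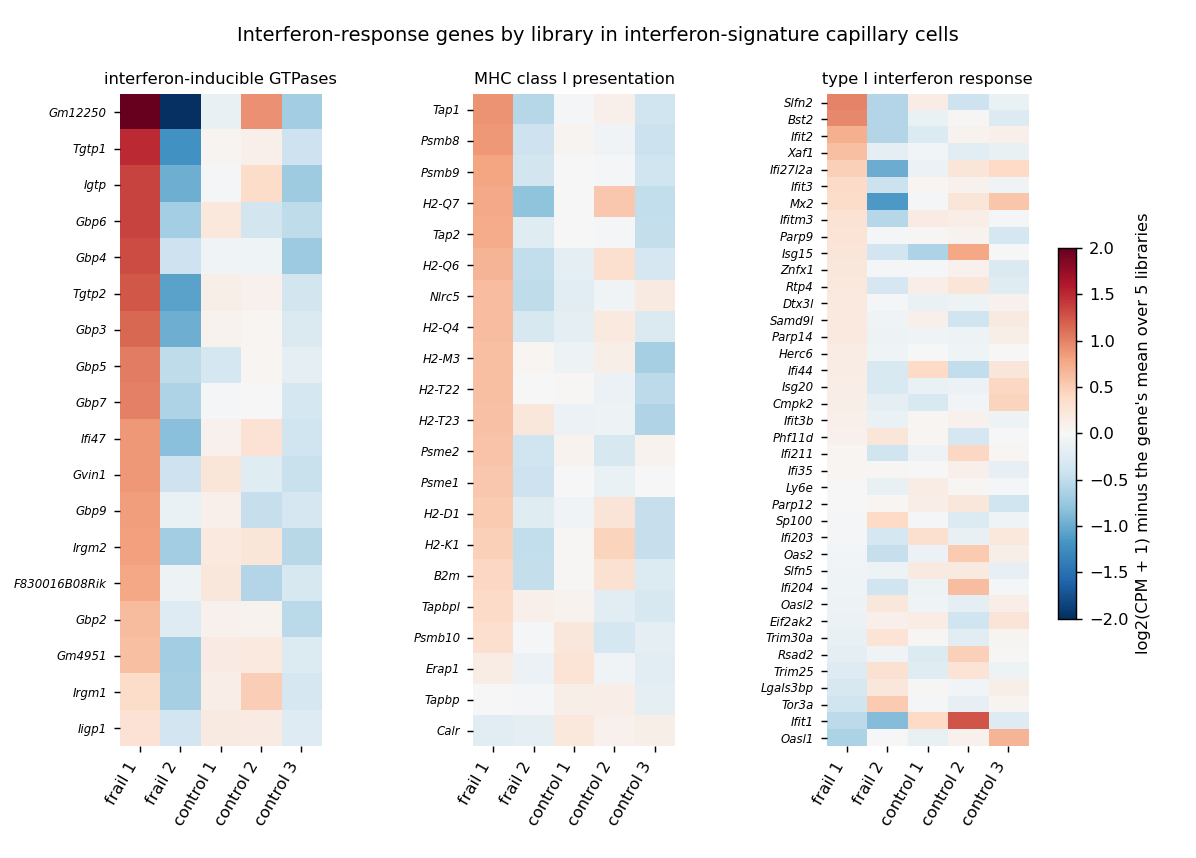
Level of each gene of 3 lists with at least 10 CPM in interferon-signature capillary cells, as log2(CPM + 1) minus the gene's mean over the 5 libraries (columns, frail left of control), rows ordered by frail 1 and rule genes included. Red marks levels above the gene's mean and blue below it. The GTPase and MHC class I panels are red in frail 1 for most genes, and in the type I panel Ifit1 is at its reddest in control 2 at 704 CPM.

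Frail and control libraries were then compared across genes in signature cells, with UMIs summed per library. In this fit CPM is scaled by TMM factors, and edgeR's quasi-likelihood test was used with Benjamini-Hochberg adjustment over 12138 genes. It called 12 genes at an adjusted p of at most 0.05 (0.0989%), all lower in frail, and 0 higher (0%), while 193 genes higher and 275 lower in frail had an unadjusted p under 0.05. All 12 are transcripts of muscle fibres and not of endothelium. Tnni2, fast troponin I (chr7:142441808-142444410), stood at 9.40 and 11.7 CPM in frail 1 and 2, against 126, 242 and 188 CPM in control 1, 2 and 3 (log2 -4.16, SE 0.34; adjusted p = 0.00924). Acta1, skeletal actin, stood at 24.5 and 31.7 CPM in frail 1 and 2, against 293, 823 and 468 CPM in control 1, 2 and 3 (log2 -4.25, SE 0.48; adjusted p = 0.0324). The others were Tnnt3 and Tnnc2, which encode troponins, Mylpf, Myl1 and Mybpc1, which encode myosin light chains and a myosin-binding protein, Myoz1, a Z-disc protein, and Ckm, Eno3, Pgam2 and Cox6a2, which encode enzymes of muscle energy supply. Their log2 changes ran from -5.11 for Myoz1 to -2.67 for Mybpc1.

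Muscle fibre transcripts were also lower in the frail libraries in other cells. In signature cells the 5 myofibre markers summed to 70.6 and 92.2 CPM in the frail libraries, against 816, 2004 and 1406 CPM in the controls. In fibro-adipogenic cells they summed to 32.6 and 89.1 CPM in the frail libraries, against 635, 2084 and 1299.5 CPM in the controls. Mural cells held 46.5 and 129 CPM in the frail libraries, against 1175, 4596 and 9047 CPM in the controls. Both frail libraries lay below all controls in each of these cells. Of all retained barcodes, 0.128% and 0.960% in the frail libraries held at least 1% of their UMIs in these markers, against 4.69%, 10.3% and 3.39% in the controls. Signature cells of the tighter gate held 72.7 and 94.4 CPM in the frail libraries, against 360.1, 991 and 271 CPM in the controls. In that gate 0 of 11607 genes passed by edgeR, and 448 had an unadjusted p under 0.05. The part of fibre fragments or free RNA in the 12 calls was not tested. By edgeR the count was 0 without frail 1, without frail 2 or without control 3 (1128, 613 and 704 genes at an unadjusted p under 0.05), 20 without control 1 and 13 without control 2. The log2 change without frail 1, frail 2 and control 3 was -3.98, -4.31 and -4.16 for Tnni2 and -4.06, -4.44 and -4.33 for Acta1.

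No gene of the interferon lists outside the cell rule passed this test in either direction. The GTPases outside the rule had a median log2 change of 0.57 over 16 tested genes, with 15 above 0, beside 0.02 and 52.5% above 0 over all genes. For none of the 16 did both frail libraries lie on one side of all controls, a separation found for 17.3% of all genes tested (8.76% with frail above and 8.54% with frail below). Without frail 1 the median was -0.83 and without frail 2 it was 1.19. MHC class I genes had a median of 0.25, which was -0.30 without frail 1 and 0.70 without frail 2. The type I list outside the rule had a median of -0.01 over 39 genes and the receptor and signalling list -0.01.

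Some genes of the interferon, sensor and chemokine lists had both frail libraries on one side of all controls without passing. Over all genes, 8.76% lay above all controls in both frail libraries and 8.54% below. The counts above and below were 1 and 3 of 19 receptor and signalling genes, 1 and 2 of 13 sensor genes and 1 and 2 of 16 chemokine and checkpoint genes. They were 2 and 1 of 39 type I genes outside the rule and 1 and 1 of 21 MHC class I genes. Cxcl10 stood at 147 and 87.2 CPM in the frail libraries, against 316, 401 and 241 CPM in the controls, with both frail libraries below all controls (log2 -1.44, SE 0.30; edgeR adjusted p = 0.394). Tnfsf10 (chr3:27317028-27342427) stood at 107 and 85.8 CPM in the frail libraries, against 60.7, 41.8 and 59.1 CPM in the controls, with both frail libraries above all controls (log2 0.85, SE 0.21; edgeR adjusted p = 0.569). Without a low-count filter the adjusted p of Tnfsf10 by edgeR was 0.0351, and over its other alternatives it ran from 0.373 to 0.9998. Among MHC class I genes, H2-T23, which encodes the nonclassical molecule Qa-1, stood at 384 and 280.2 CPM in the frail libraries, against 230.3, 242 and 157 CPM in the controls (log2 0.66, SE 0.25). The DNA sensor Cgas had a log2 change of -0.73 and the pathway inhibitor Usp18 -0.30, again with both frail libraries below all controls.

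Stress-response genes mostly had log2 changes below 0 in frail signature cells, again with none passing. All 11 heat shock genes had a log2 change below 0, with a median of -0.39, and for 6 both frail libraries lay below all controls, which held for 8.54% of all genes. All 22 ribosomal protein genes were also below 0 in this fit, with a median of -0.18, and 5 of them lay below all controls. Hspa1b, an inducible HSP70, stood at 297 and 363 CPM in the frail libraries, against 593, 831 and 717 CPM in the controls (log2 -1.11, SE 0.23; edgeR adjusted p = 0.383). Dnajb1, its co-chaperone, stood at 245 and 267 CPM in the frail libraries, against 388, 479.6 and 416 CPM in the controls (log2 -0.74). Among 14 immediate early genes, which are switched on within minutes of a stimulus, 13 had a change below 0, with a median of -0.34, and 8 lay below all controls in both frail libraries. Egr1, a transcription factor of this group, stood at 1492 and 1885 CPM in the frail libraries, against 2800.1, 3199 and 2759.7 CPM in the controls (log2 -0.79). In low-interferon cells 4 of 11 heat shock and 1 of 14 immediate early genes lay below all controls, beside 7.68% of all genes there. There 10 of the heat shock genes had a change below 0, with a median of -0.23. Of the 22 ribosomal protein genes, 21 had a change below 0 in low-interferon cells, with a median of -0.26, and 6 lay below all controls. Gdf15, the stress cytokine named in the title of the study, had in signature cells 18.2 and 11.03 CPM in the frail libraries, against 5.95, 5.22 and 7.23 CPM in the controls, with both frail libraries above all controls (log2 1.30, SE 0.31; edgeR adjusted p = 0.509).

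The named genes with changes above 0 in frail signature cells had small changes and none passed. Pdgfb, a growth factor by which endothelium recruits pericytes, stood at 522 and 571 CPM in the frail libraries, against 333, 405 and 299 CPM in the controls (log2 0.66, SE 0.21; edgeR adjusted p = 0.999). Sox18, an endothelial transcription factor, stood at 151 and 252 CPM in the frail libraries, against 115, 129 and 75.4 CPM in the controls (log2 0.91, SE 0.29). Both frail libraries lay above all controls for each of these, as the rule for naming them required. Arglu1, Upf3b, Ccn3, Inka1, Bend7 and Cxxc5 had log2 changes of 0.57 to 0.99, where Ccn3 encodes a matricellular protein and Upf3b a factor of nonsense-mediated decay. Among capillary genes, Meox2, a transcription factor of muscle capillaries that promotes fatty acid uptake, stood at 194 and 398 CPM in the frail libraries, against 189, 173 and 131 CPM in the controls (log2 0.85, SE 0.31). Of the 19 capillary transport genes outside the rule 12 had a change above 0, beside the 52.5% of all genes, and none passed.

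**Figure D5:**
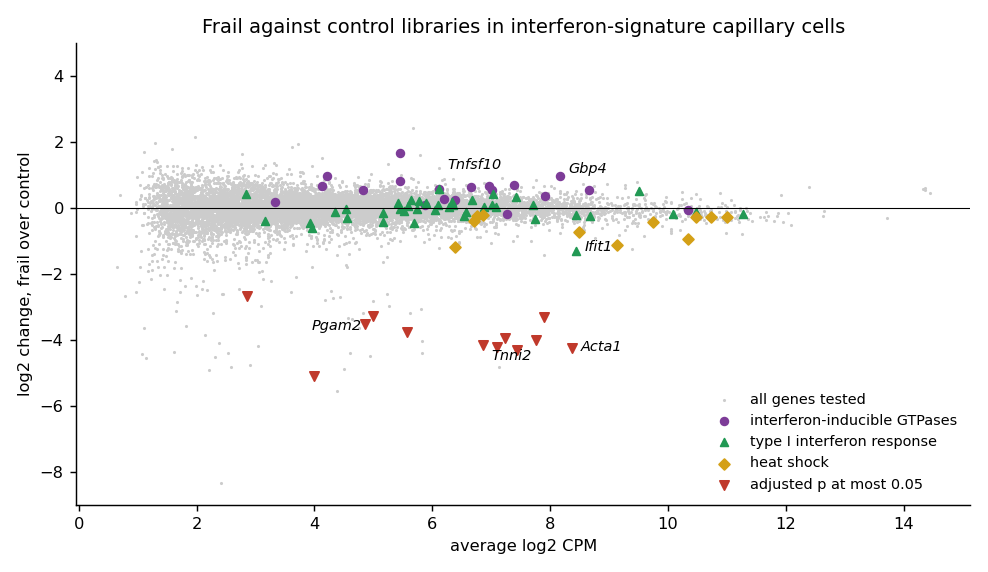
Log2 change of frail over control libraries (vertical axis) against average log2 CPM (horizontal axis) for 12138 genes in interferon-signature capillary cells. The 12 genes that edgeR called (red) are muscle fibre transcripts with log2 changes from -5.11 for Myoz1 to -2.67 for Mybpc1, while the GTPases (purple, rule genes included), type I genes (green) and heat shock genes (yellow) lie nearer to 0.

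Low-interferon capillary cells and the difference between the populations were tested the same way. In low-interferon cells 0 of 12207 genes (0%) passed by edgeR, 365 had an unadjusted p under 0.05, the smallest adjusted p was 0.505, and DESeq2 called 39. The frail effect in signature cells minus that in low-interferon cells was tested by limma on the within-library difference, and 0 of 11675 genes (0%) passed, where 365 had an unadjusted p under 0.05 and the smallest adjusted p was 0.991. No gene was thus shown to differ between the populations in its frail-to-control change. In low-interferon cells the myofibre markers summed to 334 and 377 CPM in the frail libraries, against 6491, 26813 and 1167 CPM in the controls. A p that misses the threshold does not show that the populations act alike.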

How the data were processed

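Members and gene lists were chosen with earlier results of these data known. What the authors deposited are raw UMI counts for each gene and barcode. Per the file headers, Cell Ranger 7.0.0 wrote them, and per the submitters' processing notes Seurat 4.1.2 was used and the build was GRCm38. For the annotation and the barcode filter, the sources used here give nothing. Per library, counts were summed over cells and fitted with edgeR 4.0.16 (TMM, filterByExpr, robust quasi-likelihood F test). The difference between populations was fitted with limma 3.58.1 on log2 CPM (prior count 2), and DESeq2 1.42.0 was an alternative. Each fit was first run on simulated counts with the same dispersion for every gene, which did not copy the spread between these libraries. Adjusted p-values are Benjamini-Hochberg over all genes tested. Named were genes of the cell rule and the lists. For frail against control, the 10 smallest p in each direction were added among genes with an average log2 CPM of at least 4 and both frail libraries on one side of all controls. Beside low-interferon cells, the 15 largest and 10 smallest median ratios were added among genes with at least 50 CPM, clone and predicted names left out. Myoz1 and Mybpc1 have an average log2 CPM under 4 and were named after their values were seen, to account for all 12 calls. Scrublet (scanpy 1.11.5) ranked doublets, the top scores were marked at a rate set by the number of barcodes, and they were left in except in 1 alternative. The labels name no batch. Some genes that meet the naming rules are not reported here.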

Additional observations from a re-analysis of the deposited data

How the results depend on the processing

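The difference in share was 2.50 to 9.004 points over 7 planned and added settings of gate, denominator, thinning and doublets, and -20.7 to 35.9 with a library left out, reversed without frail 1. Genes called in signature cells numbered 57 by DESeq2 (all lower), 116 with no low-count filter (11 higher, 105 lower), 0 by edgeR with at least 2 or at least 4 of the 6 genes (618 and 434 at an unadjusted p under 0.05), 0 in the tighter gate and 0 to 20 with a library left out. The cause was not tested. In low-interferon cells DESeq2 called 39 (1 higher) and no filter 438 (64 higher), against 0 otherwise and 0 with any library left out. For the difference between populations the tighter gate called 2 (both lower), and leaving out a library 0. With a library left out, log2 changes ran from -0.20 to 1.59 for Gbp4, -0.14 to 1.04 for Cd274 and -0.22 to 0.76 for Gbp2, below 0 without frail 1, and from -0.47 (without frail 1) to 0.27 (without frail 2) for Iigp1 and -0.42 (without control 1) to 0.010 (without control 2) for Rsad2. Iigp1, below 0 as reported, was at 0.013 without control 1, 0.038 without control 2 and 0.021 with at least 2 of 6 genes. Without 1 frail library the other is assumed to vary like the controls. Over the named genes and list medians, 324 alternatives kept direction and side of the threshold or moved less than the spread between libraries, 64 lost the call, 3 gained one (with no low-count filter, Tnfsf10 and Sox18, and Ifit1 of the cell rule, which is a description) and 4 list medians moved more. Replicate numbers are shared by frail and control libraries for 2 numbers, with correlations of -0.018 and 0.036 between the deviations of same-numbered libraries over 7078 genes. They share only a number. The replicate block gave a share difference of 3.68 points, 16 calls in signature cells (1 higher), 0 in low-interferon cells and 12 (10 higher) for the difference. With 2 against 3 libraries, an exact test cannot go below p = 0.1.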

Other observations

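Transcripts of the interferons themselves were rare. Ifnb1, which encodes interferon beta, had 86 and 1 UMIs in all retained cells of frail 1 and 2, against 4, 5 and 42 in control 1, 2 and 3. Cells gated as haematopoietic held 54 of the Ifnb1 UMIs of frail 1 and 19 of those of control 3, and signature cells held 2 in frail 1. Ifng, which encodes interferon gamma, had 119 and 390 UMIs in frail 1 and 2, against 43, 47 and 290 in the controls. Frail 1, with the largest share of signature cells, held the most Ifnb1, and frail 2, with the smallest share, held the most Ifng. Control 3 stood second for both, with a share of signature cells below those of the other controls. Totals of retained UMIs differ between libraries, counts are few, and no test was made.

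The MHC class II genes, which endothelium can express under interferon gamma, were highest in frail 1 for all 5 measured genes in signature cells and for 4 of 4 in low-interferon cells. In capillary cells with exactly 2 of the 6 genes, 0 of 4 were highest in frail 1 and 4 were highest in control 3. Cd74 stood at 452 and 215 CPM in the frail libraries, against 159, 261 and 236 CPM in the controls. H2-Aa, a class II alpha chain, stood at 127 and 97.2 CPM in the frail libraries, against 60.4, 91.9 and 80.0 CPM in the controls. In the same cells the haematopoietic markers summed to 176 and 230.1 CPM in the frail libraries, against 176, 254 and 160.0 CPM in the controls, and their part in these levels was not tested. Ido1, a tryptophan-degrading enzyme induced by interferon gamma, stood at 22.5 and 2.83 CPM in the frail libraries, against 11.005, 22.3 and 4.23 CPM in the controls, with frail 1 and control 2 above the other libraries.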
